A study of Mus musculus with 9 samples.

Results

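Integrins are cell surface receptors made of one α and one β chain that tie a cell to its matrix, to vessel walls and to other blood cells. The chain that a cell makes decides what it can bind: the β2 (Itgb2) family pairs with *Itgal*, *Itgam* or *Itgax* and is found on leukocytes, the β1 (Itgb1) family binds fibronectin, laminin and VCAM1 through *Itga4*, *Itga5* or *Itga6*, and β3 and β7 add receptors for RGD proteins and for the gut vessel addressin. On maturing myeloid cells *Itgam* (CD11b) is a classical surface marker of granulocytes and monocytes, and its promoter is a known target of the transcription factor PU.1. The messenger RNA (mRNA) of 10 of these chains (*Itgam*, *Itgax*, *Itgal*, *Itgb2*, *Itga4*, *Itga5*, *Itga6*, *Itgb1*, *Itgb3* and *Itgb7*) was followed across 3 mouse cell lines. The genes were picked by symbol from a table of 54347 genes, all 10 were found there, and 9 had enough counts to be tested.

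The Hox-WT line was grown from lineage-negative c-Kit+ bone marrow cells of wild-type origin. Hox-URE was made from the same kind of cells lacking both copies of the upstream regulatory element of *Spi1*, the gene of PU.1 (UREd/d). Both were immortalized with a Hoxb8-estrogen receptor fusion that works only while estradiol is present. URE-AML (labelled B22) is a line of leukemic blasts, also UREd/d. The labels give all 3 lines the same medium with fetal calf serum, IL-3, IL-6, SCF and β-estradiol. Each line had 3 libraries, numbered 1 to 3 in the labels, and nothing in them says that these were separate cultures, so the spread may be technical. A genotype or stage is one line here, and genotype, leukemia and line cannot be told apart. All values are of mRNA in bulk cultures, where fewer cells making a transcript and less transcript per cell cannot be told apart, and surface protein was not analysed here.

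The libraries held 20331064 to 28588718 counts. Levels are given as CPM, counts scaled to library size and TMM factor, and 3 counts in a library (the floor) stood at 0.104 to 0.153 CPM, which covers counting error only. *Spi1* stood at 110, 101 and 96.5 CPM in Hox-WT, at 0.0364, 0.0414 and 0 in Hox-URE and at 2.50, 5.52 and 6.35 in URE-AML. The deleted element lies outside the transcript, so these levels check expression and not the deletion itself. *Hoxb8* stood at 61.6 to 141 CPM in the Hox lines and at 0 counts in the 3 URE-AML libraries, although the labels list estradiol for that line too. Among marker genes of blood cell types, the summed level of the 15 neutrophil markers was 5710 to 9120 CPM in Hox-WT. It was 2800 to 4120 CPM for Hox-URE and 11900 to 26600 CPM for URE-AML. In Hox-WT *Mpo* averaged 5040 CPM and *Ctsg* 1990 CPM, but *Camp* only 0.643 CPM. In Hox-URE *Ctsg* averaged 3330 CPM, so few genes carried the sums of the Hox lines. The lymphoid markers summed to 6.50 to 46.3 CPM in any library, with *Cd3e*, *Cd3g*, *Ms4a1* and *Ncr1* at 0 counts in all of them.

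PU.1 acts by binding DNA, so the sequences before the gene starts are shown beside the levels. The RefSeq table of promoter windows (GRCm38.p6, 250 bases before to 50 after a gene's start) matched 6 of the 10 genes: *Itga4*, *Itga5*, *Itgam*, *Itgax*, *Itgb1* and *Itgb7*. *Itgal*, *Itgb2*, *Itga6* and *Itgb3* had no entry. The 3 shown here are the matched genes that passed the test in all 3 comparisons of lines. The part upstream of the start is printed with motif matches on either strand in capitals. The motifs were GAGGAA, the core of many PU.1 sites, and TGNGGT, a loose RUNX-type pattern. N is any base, so TGNGGT also takes in sequences that are not RUNX cores. Its matches printed here, in *Itga5* and *Itgb7*, read ACCCCA. The printed parts lie at chr7:128062390-128062639 on the plus strand for *Itgam*, and at chr15:103366792-103367041 and chr15:102231936-102232185 on the minus strand for *Itga5* and *Itgb7*. They are written in the direction of the gene.
Itgam: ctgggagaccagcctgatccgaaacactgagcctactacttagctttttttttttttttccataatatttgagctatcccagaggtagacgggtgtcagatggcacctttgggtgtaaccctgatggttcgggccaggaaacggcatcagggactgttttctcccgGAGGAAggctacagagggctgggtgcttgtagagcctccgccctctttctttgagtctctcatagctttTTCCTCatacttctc
Itga5: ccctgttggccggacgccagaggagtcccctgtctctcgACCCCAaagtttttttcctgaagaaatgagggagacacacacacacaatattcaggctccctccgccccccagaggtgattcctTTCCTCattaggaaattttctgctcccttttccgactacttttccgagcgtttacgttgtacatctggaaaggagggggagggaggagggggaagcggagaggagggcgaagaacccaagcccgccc
Itgb7: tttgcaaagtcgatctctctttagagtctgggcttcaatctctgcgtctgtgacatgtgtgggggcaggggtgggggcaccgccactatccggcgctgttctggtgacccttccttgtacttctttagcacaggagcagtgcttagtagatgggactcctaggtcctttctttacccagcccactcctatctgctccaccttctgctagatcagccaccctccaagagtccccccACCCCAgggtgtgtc
The *Itgam* window held 3 matches to GAGGAA, at -84 on the plus strand and at -15 and 33 on the minus strand, counted from the start of the gene, and none to TGNGGT. *Itga5* and *Itgb1* held 1 match to each motif. *Itgb7* held 1 GAGGAA at 3, past the start, and 1 TGNGGT at -15. *Itga4* held 2 matches to TGNGGT and none to GAGGAA, and *Itgax* held a single TGNGGT past its start. No matches of one motif overlapped those of the other. GAGGAA occurs in 28.3% of all 32851 windows of 300 bases and TGNGGT in 45.8%, so a match is common and only describes the sequence.

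The 10 genes lie on 6 chromosomes (GRCm38). *Itgal* (ENSMUSG00000030830, chr7:127296260-127335138), *Itgam* (ENSMUSG00000030786, chr7:128062640-128118491) and *Itgax* (ENSMUSG00000030789, chr7:128129547-128150657) share chromosome 7, and the last of these starts close behind *Itgam*. *Itga6* (ENSMUSG00000027111, chr2:71745616-71858416) and *Itga4* (ENSMUSG00000027009, chr2:79255426-79333123) lie on chromosome 2, and *Itgb7* (ENSMUSG00000001281, chr15:102215995-102231944) and *Itga5* (ENSMUSG00000000555, chr15:103344286-103366763) on chromosome 15. *Itgb1* (ENSMUSG00000025809, chr8:128685654-128733200), *Itgb2* (ENSMUSG00000000290, chr10:77530252-77565708) and *Itgb3* (ENSMUSG00000020689, chr11:104608000-104670476) have chromosomes of their own. A read-through gene model, *Gm49368*, shares 3450 exon bases with *Itgam* on the same strand and was assigned 0 counts in all 9 libraries. *Cerkl* overlaps *Itga4* by 1124 exon bases on the other strand, and the libraries were made with a stranded kit.

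**Figure D1:**
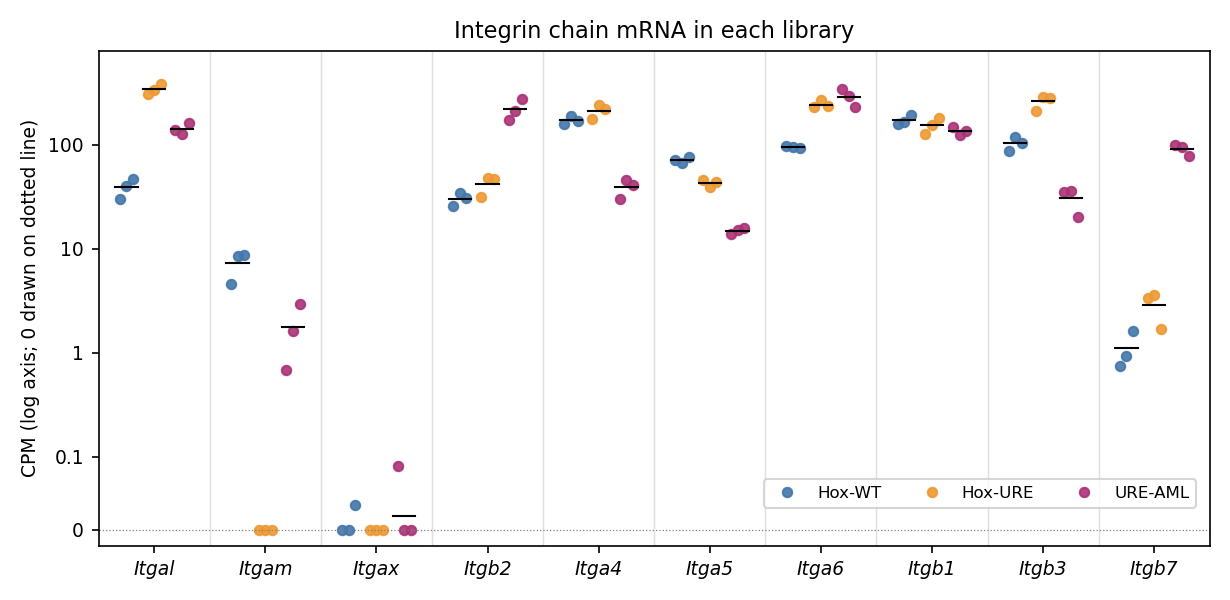
CPM of the 10 integrin genes (log axis, 0 on the dotted line) in each of the 9 libraries, coloured by line, with bars at the mean of 3 libraries. *Itgam* is at 0 in Hox-URE, *Itgb7* is 77.2 to 99.6 CPM in URE-AML and under 4 in the other lines, and *Itgb1* lies between 124 and 193 in every library.

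Among the α chains of the β2 family, *Itgam* was lost in Hox-URE, *Itgal* was gained there, and *Itgax* was hardly seen. *Itgam*, which with *Itgb2* forms the complement and ICAM1 receptor Mac-1, had 4.61, 8.50 and 8.79 CPM in Hox-WT, 0 counts in all 3 Hox-URE libraries and 0.687, 1.62 and 2.96 CPM in URE-AML. Every Hox-WT library was thus above every URE-AML library, and both lines were above Hox-URE. Against the floor of the shallowest library, the *Itgam* level of Hox-URE was at least 47.6-fold lower than that of Hox-WT (adjusted p = 8.46e-05), and that of URE-AML was at least 11.5-fold higher than that of Hox-URE (adjusted p = 0.00044). URE-AML stood 4.16-fold below Hox-WT (log2 fold change -2.06 ± 0.51 SE, adjusted p = 0.00827). URE-AML held 17, 34 and 69 counts of it, and this log2 fold change was -2.67 without URE-AML library 3 and -1.67 without library 1.

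*Itgal* encodes CD11a, the α chain of LFA-1, which holds leukocytes to cells bearing ICAM proteins. Its CPM were 30.3, 39.9 and 46.4 in Hox-WT, 310, 334 and 380 in Hox-URE, and 140, 127 and 160 in URE-AML. The 3 lines did not overlap. *Itgal* rose 8.78-fold from Hox-WT to Hox-URE (log2 fold change 3.13 ± 0.17, adjusted p = 2.68e-07) and was 3.67-fold higher in URE-AML than Hox-WT (1.87 ± 0.16, adjusted p = 4.07e-06). URE-AML was 2.39-fold below Hox-URE (-1.26 ± 0.16, adjusted p = 6.59e-05). *Itgax*, the CD11c chain of dendritic cells and some macrophages, had 1 count in Hox-WT library 3, 2 counts in URE-AML library 1 and 0 counts in the other 7 libraries. It did not pass the filter on low counts, and all its values were under the floor, so a difference between lines was not detectable at this depth.

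*Itgb2* encodes CD18, the β chain without which none of these α chains reaches the surface. It stood at 25.7, 34.1 and 30.9 CPM in Hox-WT, 31.6, 48.2 and 47.2 in Hox-URE and 173, 213 and 275 in URE-AML. URE-AML was above both other lines in every library, and the Hox lines overlapped. The URE-AML level was 7.29-fold that of Hox-WT (log2 fold change 2.87 ± 0.21, adjusted p = 1.53e-06) and 5.21-fold that of Hox-URE (2.38 ± 0.21, adjusted p = 5.75e-06). Between the Hox lines the log2 fold change was 0.49 ± 0.20 with an adjusted p of 0.0671. Without Hox-URE library 1, the lowest of its line, it was 0.65 with an adjusted p of 0.0123 and would count as higher.

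The β2 partner chains therefore differed in make-up. Per kilobase of the longest coding transcript, which allows levels of different genes to be compared, *Itgal* made up 82.8% ± 2.30 (SD, n = 3) of the summed level of *Itgal*, *Itgam*, *Itgax* and *Itgad* in Hox-WT, and *Itgam* 17.0% ± 2.38. In Hox-URE *Itgal* was 100% of the sum. In URE-AML it was 98.6% ± 0.707 and *Itgam* 1.32% ± 0.743. *Itgad*, the CD11d chain, had 5 or fewer counts in total in each line. Set against their common β chain, *Itgal* had 0.725 times the per-length level of *Itgb2* in Hox-WT, 4.65 times in Hox-URE and 0.373 times in URE-AML. The log2 ratios in single libraries were -0.59 to -0.22, 1.98 to 2.48 and -1.59 to -1.12, so the lines did not overlap. The α chain exceeded the β chain only in Hox-URE, and the β chain exceeded the α chain in Hox-WT and, by more, in URE-AML. These ratios and shares are given as descriptions, with no test. The ratios were computed with the longest coding transcript as length only, and the order of *Itgal* and *Itgb2* in Hox-WT could depend on it.

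The α chains that pair with *Itgb1* split in 2 directions. *Itga4*, the VCAM1 receptor chain of progenitors and lymphocytes, had 157, 190 and 170 CPM in Hox-WT, 175, 241 and 219 in Hox-URE and 30.4, 45.9 and 40.9 in URE-AML. The Hox lines overlapped and URE-AML lay below both. *Itga4* fell 4.42-fold from Hox-WT to URE-AML (log2 fold change -2.14 ± 0.17, adjusted p = 2.33e-06) and was 5.42-fold lower than Hox-URE (-2.44 ± 0.17, adjusted p = 1.12e-06). Between the Hox lines the log2 fold change was 0.29 ± 0.16, with an adjusted p of 0.151.

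*Itga5*, the α chain of the classical fibronectin receptor, was stepped down across the lines. Its CPM were 71.9, 66.7 and 76.3 in Hox-WT, 45.6, 39 and 44.2 in Hox-URE and 14, 15 and 15.8 in URE-AML. No library of one line overlapped another line. The fall from Hox-WT to Hox-URE was 1.67-fold (log2 fold change -0.74 ± 0.10, adjusted p = 0.000167), and against a fold change of 1.5 itself, by edgeR's glmTreat, the adjusted p was 0.0837. URE-AML was 4.80-fold below Hox-WT (-2.26 ± 0.11, adjusted p = 4.82e-08) and 2.88-fold below Hox-URE (-1.52 ± 0.10, adjusted p = 9.51e-07).

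*Itga6*, a laminin receptor chain long used to mark stem and progenitor cells, went the other way. It had 97.7, 95.7 and 93.6 CPM in Hox-WT, 229, 267 and 233 in Hox-URE and 342, 297 and 230 in URE-AML. Both UREd/d lines were above Hox-WT in every library and overlapped each other. The rise was 2.54-fold in Hox-URE (log2 fold change 1.35 ± 0.14, adjusted p = 2.29e-05) and 3.03-fold in URE-AML (1.60 ± 0.14, adjusted p = 4.40e-06), and the difference between these lines was 0.25 ± 0.13 with an adjusted p of 0.133.

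*Itgb1*, the β chain common to all 3, was the steadiest member. Its CPM were 157, 166 and 193 in Hox-WT, 127, 155 and 182 in Hox-URE and 147, 124 and 134 in URE-AML. It passed the call rule in none of the comparisons. The log2 fold changes were -0.16 ± 0.14 in Hox-URE and -0.35 ± 0.14 in URE-AML relative to Hox-WT, and the latter had an adjusted p of 0.0488 at a fold change of 1.28, with all URE-AML libraries below all Hox-WT libraries. The per-length share of *Itga6* among *Itga4*, *Itga5* and *Itga6* rose from 39.5% ± 1.41 in Hox-WT to 64.2% ± 1.51 in the Hox-URE line and 89.8% ± 2.72 in URE-AML, as values with no test. With the union of all annotated exons as the length, these shares were 28.3%, 53.0% and 84.3%, and *Itga5*, at 38.8%, was then the largest of the 3 in Hox-WT. The laminin receptor chain had the largest share in both UREd/d lines under either length.

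**Figure D2:**
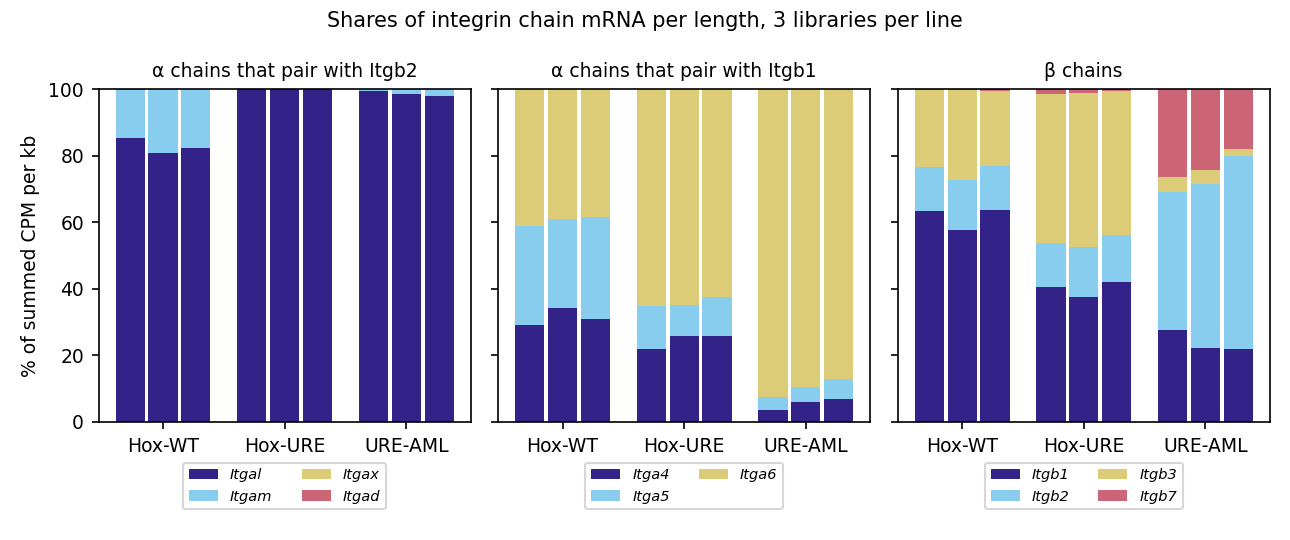
Shares (percent of summed CPM per kilobase) of the α chains that pair with Itgb2, of 3 α chains that pair with Itgb1, and of the β chains, one bar per library in the order 1 to 3. *Itgal* fills 80.7% or more of the first panel in every library, the *Itga6* share is 38.4 to 41.1% in Hox-WT and 87.2 to 92.6% in URE-AML, and the *Itgb7* share is 18.0% or more only in URE-AML.

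*Itgb3* changed in opposite directions in the UREd/d lines. This β chain pairs with *Itga2b* as the platelet fibrinogen receptor and with *Itgav* as the vitronectin receptor, and is found on megakaryocytes, mast cells and early progenitors. It stood at 86.4, 118 and 104 CPM in Hox-WT, 212, 290 and 284 in Hox-URE and 35.5, 35.6 and 20.4 in URE-AML, with no overlap between lines. *Itgb3* rose 2.55-fold in Hox-URE (log2 fold change 1.35 ± 0.21, adjusted p = 0.000448) and fell 3.36-fold in URE-AML (-1.75 ± 0.22, adjusted p = 6.97e-05) against Hox-WT. The difference between the UREd/d lines was 8.57-fold (-3.10 ± 0.23, adjusted p = 1.64e-06).

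Its partner *Itga2b* (CD41) showed 1.91, 2.64 and 2.56 CPM in Hox-WT, 15.1, 29.8 and 40.3 in Hox-URE and 0.0808, 0.714 and 0.687 in URE-AML. It was higher in Hox-URE (log2 fold change 3.57 ± 0.44, adjusted p = 9.13e-05) and lower in URE-AML (-2.29 ± 0.56, adjusted p = 0.00547), the same directions as *Itgb3*. *Itga2b* had 0.171 times the per-length level of *Itgb3* in Hox-URE, as the mean of log2 ratios of -3.06 to -2.07, and less in the other lines. *Itgav* stood at 9.83 ± 3.33 CPM (SD, n = 3) for Hox-WT, 8.51 ± 0.110 for Hox-URE and 20.7 ± 1.17 for URE-AML. The URE-AML level was above that of Hox-WT (log2 fold change 1.08 ± 0.22, adjusted p = 0.00183), so it did not follow *Itgb3*. Of the 7 megakaryocyte markers, 4 were tested. In Hox-URE relative to Hox-WT *Gp9* was higher with overlapping libraries, *Pf4* was lower, and *Vwf* and *Gp1bb* did not pass. Of all genes, 21.3% were higher and 15.9% lower there. *Gp1bb* had 0 counts in both Hox lines, and the list summed to 4.84 to 13.4 CPM for Hox-WT, 1.38 to 10.9 for Hox-URE and 1.86 to 4.72 for URE-AML. Of 6 tested basophil and mast cell markers, 5 were higher and none lower in Hox-URE than Hox-WT, beside 21.3% and 15.9% of all genes. In URE-AML 1 was higher and 4 lower than Hox-WT, beside 23% and 20.2%. Between URE-AML and Hox-URE 6 were lower, beside 22.4% of all genes. These markers thus moved with *Itgb3*. The part of either list in the *Itgb3* values was not tested.

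*Itgb7* had the largest fold change of any tested member between URE-AML and Hox-WT. It pairs with *Itga4* as the receptor for the gut addressin MAdCAM1 and with *Itgae* as the E-cadherin receptor. Its CPM were 0.750, 0.929 and 1.63 in Hox-WT, 3.39, 3.61 and 1.69 in Hox-URE and 99.6, 94.9 and 77.2 in URE-AML. URE-AML was 81.4-fold above Hox-WT (log2 fold change 6.35 ± 0.32, adjusted p = 8.51e-08) and 30.8-fold above Hox-URE (4.95 ± 0.29, adjusted p = 3.09e-07). Hox-URE was 2.64-fold above Hox-WT (1.40 ± 0.33, adjusted p = 0.00482), with libraries that did not overlap although Hox-WT library 3 and Hox-URE library 3 nearly met. Mast cell progenitors are known to carry this chain. The basophil and mast cell markers summed to 607 to 928 CPM for Hox-WT, 1800 to 6370 for Hox-URE and 43.5 to 78.6 for URE-AML. In URE-AML all 6 tested markers fell below Hox-URE, beside 22.4% of all genes. The part of these markers in the *Itgb7* values was not tested.

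*Itga4*, a partner of *Itgb7*, did not rise with it. It was 45.3 times the per-length level of *Itgb7* in Hox-WT, 21 times in Hox-URE and 0.117 times in URE-AML. The order of α and β chain was thus reversed in the leukemic line in each library, with log2 ratios of -3.58 to -2.78 there and 3.83 to 5.85 in the Hox lines. *Itgae*, the other partner, had 10 counts over the 9 libraries, too few to show a change.

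The order of the members also differed between lines on the per-length scale. In Hox-WT *Itgb1* was highest at 45.1 CPM per kilobase, followed by *Itga6* at 22.2, and by *Itga4* and *Itgb3*, both at 17.7, and *Itga5* at 16.3, 3 genes whose SDs overlapped. *Itgb2* at 10.2 and *Itgal* at 7.44 came next and overlapped likewise, and *Itgam* at 1.56 and *Itgb7* at 0.411 were lowest of those tested. In Hox-URE *Itgal* at 65.3 and *Itga6* at 56.4 came first, followed by *Itgb3* at 45.2 and *Itgb1* at 40.5, and the SDs of each of these overlapped those of the next. In URE-AML *Itgb2* at 74.2 and *Itga6* at 67.2 led, and their SDs of 17.2 and 13.1 do not separate them. *Itgb1* at 35.3, *Itgb7* at 33.8 and *Itgal* at 27.3 followed there, and *Itgb3* at 5.28, *Itga4* at 4, *Itga5* at 3.41 and *Itgam* at 0.375 were lowest. Among the 4 β chains, the share of *Itgb1* was 61.5% ± 3.42 for Hox-WT, 40.1% ± 2.35 for Hox-URE and 23.9% ± 3.09 for URE-AML. *Itgb3* took 24.1% ± 2.38, 44.8% ± 1.48 and 3.61% ± 1.22. *Itgb2* took 13.8% ± 1.13, 14.0% ± 0.974 and 49.6% ± 8.11, and *Itgb7* 0.549% ± 0.184, 1.11% ± 0.507 and 22.9% ± 4.42. The leading β chains were therefore β1 in Hox-WT, β3 and β1 in Hox-URE, and β2 in URE-AML.

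**Figure D3:**
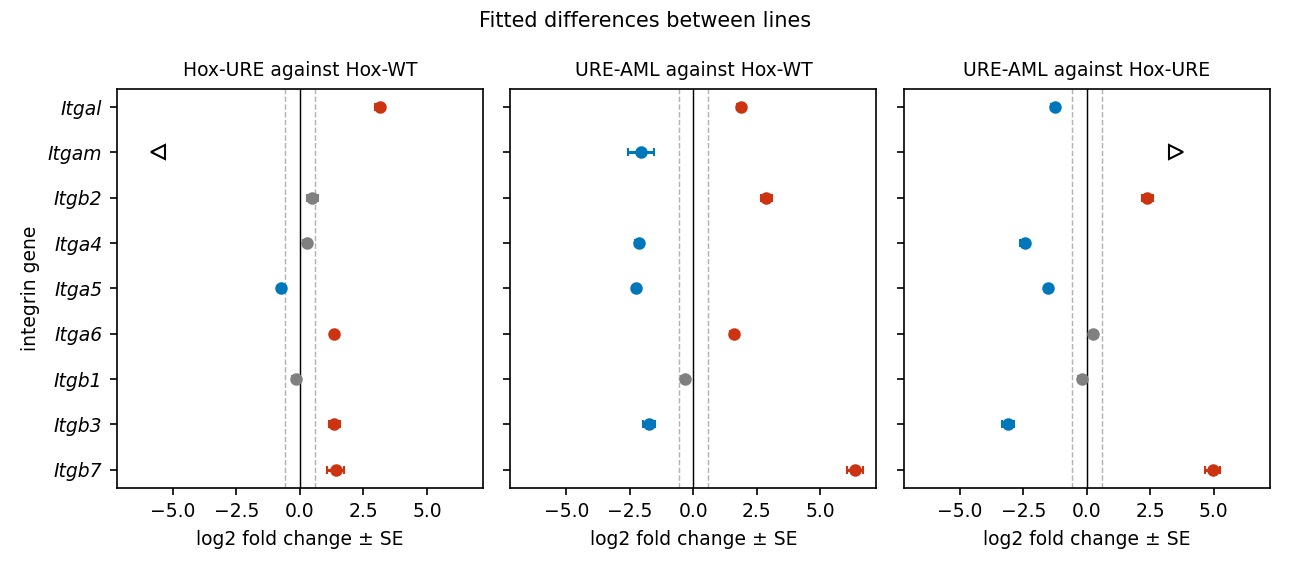
Log2 fold change with its standard error (edgeR, 9 libraries) of the 9 tested integrin genes in each comparison, red where called higher, blue where called lower and grey where not called, with dashed lines at a fold change of 1.5. Open triangles mark the bounds for *Itgam* against Hox-URE, where it had 0 counts. *Itgb3* lies right of 0 in the first panel and left of it in the second.

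Counted together, with calls made where the adjusted p was below 0.05 and the fold change exceeded 1.5, 4 members were higher and 2 lower of the 9 tested between the Hox lines. Of all 13082 genes tested there, 37.2% were called, 21.3% higher and 15.9% lower. Between URE-AML and Hox-WT, 4 members were higher and 4 lower, beside 43.2% of all genes (23% higher and 20.2% lower). Between the UREd/d lines, 3 members were higher and 4 lower in URE-AML, beside 42.7% of all genes (20.3% higher and 22.4% lower). Libraries of the lines did not overlap for 6, 9 and 7 of the 9 members, where 60.3%, 67.6% and 62.8% of all genes did not. The median log2 fold change of the members was 0.49, -0.35 and -0.20 in the 3 comparisons, the same with *Itgam* at its bounds, and 0.00 for all genes tested in each. Without sign, the medians were 1.35, 2.06 and 2.38, beside 0.49, 0.56 and 0.55 for all genes. The comparisons share lines, so their counts are not independent.

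Genes next to the members were read from the same fit. Within 200 kb of *Itgam* and *Itgax*, 13 other genes were tested. In Hox-URE relative to Hox-WT, *Vkorc1* and the gene model *Gm6916* were higher and *Kat8* and *Zfp668* lower. In URE-AML relative to Hox-WT, *Pycard*, *Tgfb1i1*, *Vkorc1* and *Gm6916* were higher and *Zfp668* lower, and *Pycard* and *Tgfb1i1* were also higher than Hox-URE. The median of these 13 genes was 0.04 in Hox-URE and 0.13 in URE-AML relative to Hox-WT on the log2 scale. In Hox-URE 2 of the 13 fell with *Itgam*, beside 15.9% of all genes. The 511 tested genes of chromosome 15, which holds *Itga5* and *Itgb7*, had a median log2 fold change of 0.33 in Hox-URE relative to Hox-WT and -0.39 for URE-AML relative to Hox-URE. *Itgb7* went with the first shift and against the second, and *Itga5* went against the first and with the second. The medians of the other chromosomes with members were -0.09 to 0.11 in all comparisons.

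For each member, genes whose log2 CPM followed it most closely over the 9 libraries were found, 2 per member, by the root mean square difference of centred values, as a description. The closest to *Itgal* was *Il3ra*, the α chain of the IL-3 receptor, at 0.15 log2 units, followed by *Plcxd2* at 0.27. *Itgam* was near *Nme4*, at 0.42. *Itgb3* was nearest to *Plek* (pleckstrin, the major protein kinase C substrate of platelets) at 0.14 and to *Nrp1* at 0.22. *Itgb7* was nearest to the pseudogene *Hdac1-ps* at 0.34 and *Dram1* at 0.40, and *Itgb2* to *Ikbke* and *Chpt1*, both at 0.16. *Itga4* was nearest to *Armcx3* and *Hmces* (0.17 each), *Itga5* to *Wdfy2* (0.14) and *Patz1* (0.17), *Itga6* to *Lrrc8b* (0.10) and *Plp2* (0.14), and *Itgb1* to *Mrfap1* (0.08) and *Apool* (0.09). No member lay within 0.5 of another. The 9 libraries are 3 lines, so a shared pattern is largely a shared order of 3 means.

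Of the 16 other integrin chains, 7 were tested. In Hox-URE relative to Hox-WT 3 were higher and none lower, beside 21.3% and 15.9% of all genes, and the median log2 fold change was 0.16. In URE-AML relative to Hox-WT 3 were higher and 4 lower, beside 23% and 20.2%. Against Hox-URE these were 3 and 3, beside 20.3% and 22.4%. The medians of these 2 comparisons were -2.29 and -2.26. *Itga9*, an α chain for tenascin, osteopontin and VCAM1, had 32.9, 40.3 and 37.0 CPM in Hox-WT and 44.9, 34.4 and 29.1 in Hox-URE. In URE-AML it was at 0, 0 and 0.343 CPM, 8 counts in all, and fell by 8.25 ± 0.50 on the log2 scale against Hox-WT (adjusted p = 3.47e-07). Without URE-AML library 3, which held all 8 counts, that line was at 0.

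*Itga1*, a collagen receptor chain, showed the opposite: 0 counts in Hox-WT, 1.20, 1.82 and 0.817 CPM in Hox-URE and 23.1, 19.3 and 12.3 in URE-AML. Its URE-AML level was at least 162-fold higher than that of Hox-WT (adjusted p = 2.23e-06). *Itga8* had 5.10, 7.96 and 5.47 CPM in Hox-URE and 0 counts in URE-AML, a level at least 43.3-fold lower (adjusted p = 1.72e-05). *Itgb5* was higher in URE-AML than Hox-WT (log2 fold change 1.25 ± 0.37, adjusted p = 0.0138) and than Hox-URE (1.09 ± 0.37, adjusted p = 0.0258). Its Hox-WT libraries ranged from 16.5 to 51.5 CPM, and the first call was lost without Hox-WT library 2 (adjusted p = 0.0562). Both were lost in a test against a fold change of 1.5 by glmTreat (adjusted p = 0.0589 and 0.112). The second was lost without Hox-URE library 2 or 3 (adjusted p = 0.0752 and 0.0804) and without URE-AML library 1 or 3 (0.0695 and 0.0543). *Itgb4* stayed under 1 CPM in mean in all lines, and its call in URE-AML relative to Hox-WT (adjusted p = 0.0476) was lost without Hox-WT library 1 (0.056), Hox-URE library 2 or 3 (0.0659 and 0.0524) and URE-AML library 1 or 2 (0.135 and 0.134). *Itga2*, *Itga11*, *Itgb6* and *Itgb8* had 0 counts in every library, and *Itga3*, *Itga7*, *Itga10*, *Itgad* and *Itgae* were too low to test.

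Of 20 ligands and counter-receptors of these integrins, 12 were tested. From Hox-WT to URE-AML 8 rose and 3 fell, beside 23% of all genes called higher and 20.2% lower, and the median log2 fold change was 3.81. From Hox-WT to Hox-URE 4 rose and 1 fell (median 0.42), beside 21.3% and 15.9% of all genes. From Hox-URE to URE-AML 5 rose and 3 fell (median 1.16), beside 20.3% and 22.4%. *Vcam1*, the ligand of *Itga4* integrins, had 3 counts in all of Hox-WT (2 of them in library 3), 1 in all of Hox-URE and 188, 382 and 492 CPM in URE-AML. The ratio of pooled counts was 9740 against Hox-WT, with a 95% exact Poisson interval of 3330 to 47200 that covers counting error only. The adjusted p was 3.66e-08. The line with *Vcam1* was the line with the lowest *Itga4*.

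*Icam1*, the ligand of both LFA-1 and Mac-1, had 12.4, 14.4 and 14.3 CPM in Hox-WT, 0 counts in Hox-URE and a single count in URE-AML. The Hox-URE level was at least 89.4-fold lower than that of Hox-WT (adjusted p = 1.18e-06). *Icam2* remained at 66.8 to 131 CPM in mean in all lines and was lower in URE-AML than Hox-WT (log2 fold change -0.83 ± 0.15, adjusted p = 0.000726), and *Icam4* was lower too (-4.57 ± 0.49, adjusted p = 2.44e-05). *Spp1* (osteopontin) and *Thbs1* (thrombospondin), both ligands of *Itgb3* integrins, were higher in both UREd/d lines than in Hox-WT. The *Spp1* log2 fold changes were 7.31 ± 0.70 (adjusted p = 1.49e-05) in Hox-URE and 9.16 ± 0.74 (adjusted p = 2.84e-06) in URE-AML, and those of *Thbs1* were 3.90 ± 0.65 (adjusted p = 0.000635) and 7.09 ± 0.74 (adjusted p = 2e-05). Single libraries weighed on these values. *Thbs1* had 283, 71.3 and 43.9 CPM in Hox-URE, and its rise there was 2.69 without library 1. *Spp1* had 1880, 619 and 346 CPM in URE-AML, and its rise there was 8.19 without library 1. *C3*, whose fragment is bound by Mac-1, stood at 600, 589 and 1050 CPM in URE-AML and at 2.59 to 11.2 in the Hox lines (6.62 ± 0.51 against Hox-WT, adjusted p = 2.03e-06). *F11r* (JAM-A), a ligand of LFA-1, was also higher in URE-AML (5.66 ± 0.53, adjusted p = 7.95e-06, and 6.39 without Hox-WT library 3). *Lama5* and *Jam2* were above Hox-WT in both UREd/d lines. The *Lama5* log2 fold changes were 4.18 ± 0.35 (adjusted p = 6.4e-06) in Hox-URE and 1.96 ± 0.35 (adjusted p = 0.000696) in URE-AML, and those of *Jam2* were 7.39 ± 0.70 (adjusted p = 1.45e-05) and 7.32 ± 0.70 (adjusted p = 1e-05), the latter 6.46 without URE-AML library 1. 

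**Figure D4:**
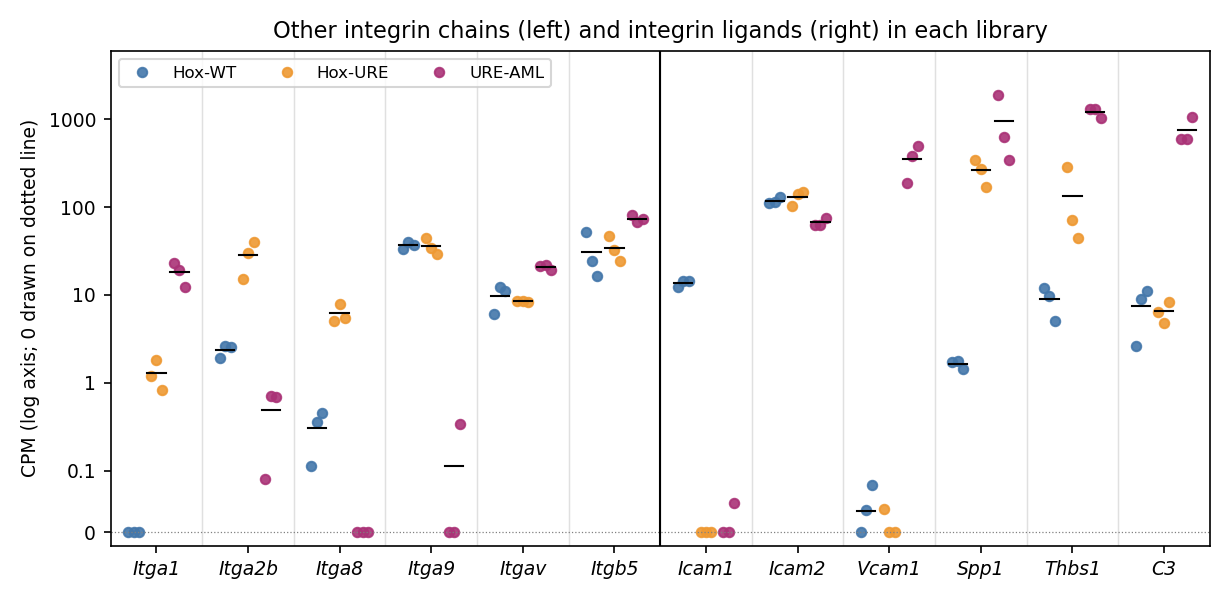
CPM (log axis, 0 on the dotted line) of 6 other integrin chains and 6 integrin ligands in each library, with bars at the mean of 3 libraries. *Vcam1*, *Thbs1* and *C3* are highest in URE-AML, *Icam1* is above 12 CPM in Hox-WT and at or near 0 in the other lines, and *Itga9* is nearly absent from URE-AML.

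Inside the cell, talin (*Tln1*) and kindlin-3 (*Fermt3*) switch integrins on, and Src and Syk kinases pass their signal down. Of 42 activators and adaptors, 37 were tested, and 10 rose and 14 fell from Hox-WT to Hox-URE, beside 21.3% and 15.9% of all genes. From Hox-WT to URE-AML 10 rose and 10 fell, near the 23% and 20.2% of all genes, and from Hox-URE to URE-AML 12 rose and 8 fell, beside 20.3% and 22.4%. *Tln1* stood at 615, 619 and 654 CPM in Hox-WT, 1480, 1380 and 1440 in Hox-URE and 930, 865 and 934 in URE-AML, a log2 rise of 1.19 ± 0.09 in Hox-URE (adjusted p = 2.05e-06). URE-AML was lower than Hox-URE (-0.66 ± 0.08, adjusted p = 8.93e-05), and its log2 fold change of 0.53 ± 0.08 from Hox-WT was under the 1.5-fold limit. *Ptk2*, the focal adhesion kinase, had 0.104 to 0.187 CPM in Hox-WT and 10.9 to 15.6 in the UREd/d lines (6.36 ± 0.24 in Hox-URE, adjusted p = 3.42e-08). *Lcp2* (SLP-76) rose by 2 ± 0.15 in Hox-URE (adjusted p = 3.39e-06) and 4.11 ± 0.16 in URE-AML (adjusted p = 1.95e-08).

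*Syk*, *Tyrobp* and *Skap2*, which act in integrin signalling of phagocytes, were lower in both UREd/d lines. *Syk* fell from 191 to 198 CPM in Hox-WT to 3.83 to 5.76 CPM in Hox-URE (log2 fold change -5.39 ± 0.44, adjusted p = 5.22e-06) and 3.27 to 13.9 in URE-AML (-4.66 ± 0.42, adjusted p = 6.39e-06, and -5.40 without URE-AML library 3). *Tyrobp* (DAP12), the ITAM adaptor that recruits Syk, had a single count in Hox-URE and fell by 5.50 ± 0.45 on the log2 scale in URE-AML (adjusted p = 2.84e-06, and -6.48 without URE-AML library 3). *Skap2*, which links Src kinases to integrin activation, was lower in Hox-URE (-2.03 ± 0.15, adjusted p = 2.43e-06) and URE-AML (-1.72 ± 0.15, adjusted p = 4.3e-06). *Fcer1g*, the other ITAM adaptor of the list, was instead higher in Hox-URE (1.33 ± 0.17, adjusted p = 0.000127). *Parvg* (parvin-γ), the parvin of blood cells, had a log2 fold change of -1.05 ± 0.10 in Hox-URE (adjusted p = 1.64e-05) and -2.81 ± 0.11 in URE-AML (adjusted p = 1.51e-08).

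Of 16 selectins, selectin ligands and membrane proteins that sit beside integrins, 14 were tested. From Hox-WT to Hox-URE 5 rose and 3 fell, beside 21.3% and 15.9% of all genes, and this balance turned to 2 and 3 without Hox-WT library 1 or Hox-URE library 3 and to 3 and 4 without Hox-URE library 2. From Hox-WT to URE-AML 9 rose and 2 fell, beside 23% and 20.2% of all genes. From Hox-URE to URE-AML 7 rose and 4 fell, beside 20.3% and 22.4%. The tetraspanin *Cd81* was lower in Hox-URE (log2 fold change -2.64 ± 0.17, adjusted p = 9.07e-07) and higher in URE-AML (1.18 ± 0.15, adjusted p = 9.05e-05), each relative to Hox-WT. *Cd82* and *Cd151*, tetraspanins that bind *Itga6* and other laminin receptor chains, were lower in URE-AML than Hox-WT (-2.36 ± 0.18, adjusted p = 1.73e-06, and -0.92 ± 0.19, adjusted p = 0.00183). *Cd151* was higher in Hox-URE (0.64 ± 0.18, adjusted p = 0.0144), a call that was lost without Hox-WT library 1 (adjusted p = 0.052) or Hox-URE library 3 (0.0577). *Pecam1* was higher in URE-AML (2.19 ± 0.11, adjusted p = 1.08e-07).

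Of 14 tested neutrophil markers, 11 were lower and 1 higher in Hox-URE than Hox-WT, beside 15.9% and 21.3% of all genes. In URE-AML 11 were higher and 2 lower than Hox-WT, beside 23% and 20.2%. The medians were -3.84 and 3.64 on the log2 scale. *Itgam* was lower in both UREd/d lines, so relative to Hox-WT it moved with this list in Hox-URE and against it in URE-AML. From Hox-URE to URE-AML 12 of these markers rose and none fell, beside 20.3% and 22.4% of all genes, and *Itgam* rose too. *Itgb2* was higher in URE-AML than both Hox lines, as the list was, and *Itgal* was higher in Hox-URE, where the list was lower. Of 9 tested monocyte and macrophage markers, 7 were lower and 1 higher in Hox-URE than Hox-WT, beside 15.9% and 21.3% of all genes. In URE-AML 5 were lower and 1 higher than Hox-WT, beside 20.2% and 23%. The list still summed to more in Hox-URE (844 to 948 CPM) than in Hox-WT (361 to 453) or URE-AML (176 to 352). *Ccr2* carried this, at 885 CPM in mean in Hox-URE and 12.7 in Hox-WT. The erythroid markers summed to 13.7 CPM or less in any library. None of the 4 tested passed between the Hox lines, where 37.2% of all genes did. The dendritic cell markers, for which *Itgax* is also used, had 1 tested member, the MHC class II gene *H2-Ab1*. It stood at 28.3 CPM in mean in Hox-URE and at 0.0595 or less in the other lines. The list's *H2-Aa*, *H2-Eb1* and *Cd74* did not share this rise, at 0.017, 0.0511 and 0.161 CPM in mean in Hox-URE. *Siglech* and *Clec9a* were at 0 counts throughout. *Kit* and *Cd34*, both markers of progenitors, were lower than Hox-WT in both UREd/d lines. The part of these markers in the integrin results was not tested.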

How the data were processed

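Stranded poly-A libraries, 3 for each of 3 lines, had been sequenced. Per the labels and methods, the authors ran salmon and gathered transcripts into genes by tximport. The deposited table holds these estimated counts as whole-number counts per gene, not scaled to library size, which were used as deposited. The submitters' processing notes name GRCm38 and Salmon, and the transcriptome release was not given in the sources used here. Whether counts were corrected for transcript length is unknown, so a change in transcript use could alter a gene's count.

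Lines and library numbers were taken from the labels. Genes were kept by filterByExpr (minimum count 10), which left 13082 of 54347. The fit used edgeR 4.0.16 (R 4.3.3) with TMM factors, all 9 libraries and line as the factor. Each pair of lines was tested by the two-sided quasi-likelihood F test, with Benjamini-Hochberg adjustment over all genes tested. Calls needed an adjusted p below 0.05 plus more than 1.5-fold change, as in the study. SE is |log2 fold change| over the root of F. A fold against a line at 0 counts is a bound, from 3 counts in that line's shallowest library. Common biological variation (BCV) was 0.173. The code was tested on simulated data. Lengths and coordinates came from GENCODE M21, in which 54094 identifiers were found.

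Same-numbered libraries of Hox-URE and Hox-WT deviated together (correlations of 0.36, 0.18 and 0.25), so the numbers pair these lines by the data, not by the labels. With URE-AML the correlations were 0.04 to 0.15. The members and gene lists were chosen with earlier results of these data known. Named genes were the members, the other integrin chains, *Spi1*, *Hoxb8*, up to 4 higher and 4 lower genes of each other list with the smallest p per comparison, the 2 genes most like each member and called neighbours of *Itgam*. *Gm49368*, *Cerkl*, *Ctsg*, *H2-Aa*, *H2-Eb1*, *Cd74* and the markers named as at 0 counts fell outside this rule and were chosen after their values were seen. Some genes that the rule covers are not reported here. Log2 CPM for likeness used 0.5 CPM as the pseudocount. Alternatives were other scalings, filters, the 6 libraries of 2 lines, a replicate block, DESeq2 1.42.0, no fold threshold, glmTreat and leaving out each library. Figures were drawn with matplotlib 3.10.9.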

Additional observations from a re-analysis of the deposited data

Results flagged for a closer look

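Relative to Hox-WT, *Itgb3* was higher in Hox-URE and lower in URE-AML, and the test between the UREd/d lines, which is the test of the difference between these changes, gave a log2 fold change of -3.10 ± 0.23 (edgeR, adjusted p = 1.64e-06). All 3 libraries of Hox-URE lay above, and all 3 of URE-AML below, every Hox-WT library. No other member was called in opposite directions in these comparisons. Groups of 3 libraries were too small for a test of single outlying libraries.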

How the results depend on the processing

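Over 19 alternatives, 5 to 7 members were called between Hox-URE and Hox-WT, 7 to 9 between URE-AML and Hox-WT and 6 to 7 between URE-AML and Hox-URE. Without the fold threshold *Itgb1* was also called between URE-AML and Hox-WT. Under the other alternatives, 481 of 483 values of single members kept direction and call. The exceptions were *Itgb2* without Hox-URE library 1 and *Itga5* under glmTreat, both in Hox-URE against Hox-WT, and no direction turned. The replicate block changed no call of a member, and of the other chains it ended the *Itgb4* call between URE-AML and Hox-WT (adjusted p = 0.0504). With it, 3 neutrophil markers were higher and 11 lower between Hox-URE and Hox-WT, beside 1 and 11 without it. It left 4908 genes called between Hox-URE and Hox-WT, 5679 between URE-AML and Hox-WT and 5584 between URE-AML and Hox-URE, beside 4873, 5648 and 5591 without it, and DESeq2 called 4887, 5654 and 5586. With library size only as scaling, the median of all genes moved to 0.11 on the log2 scale between URE-AML and Hox-URE. The *Itgal* share of the β2 partners in Hox-WT was 80.4% with the union of exons as length.

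At least 10 counts in every library, which removes genes absent from a line, left fewer called genes in the other lists. Between Hox-URE and Hox-WT these were 0 other integrin chains, 3 ligands, 7 neutrophil, 3 monocyte and 0 megakaryocyte markers. Between URE-AML and Hox-WT they were 2 chains, 12 activators and adaptors, 6 ligands, 7 neutrophil, 2 monocyte markers and 1 megakaryocyte marker. Between URE-AML and Hox-URE they were 2 chains, 5 ligands, 6 neutrophil and 0 megakaryocyte markers. glmTreat left 4 selectins and associated proteins between the Hox lines (2 higher and 2 lower, beside 4 and 4 with library size only) and 13 activators and adaptors between URE-AML and Hox-URE. Leaving out 1 library gave 5 to 9 of the former (5 without Hox-WT library 1 or Hox-URE library 3) and 1 to 3 megakaryocyte markers between the Hox lines (1 without Hox-WT library 2), and no filter gave 4 of these markers. The alternatives for these other lists were added after seeing the data. Depth limited *Itgax*, which stayed at 3 counts in all.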
